A study of Mus musculus with 6 samples.

Results

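The myosin-binding protein genes Mybpc1, Mybpc2 and Mybph were examined for Maf binding and for H3K27ac in adult mouse muscle. They are 3 of 21938 protein-coding genes in the GENCODE annotation of GRCm38, taken by name. The choice was made with earlier results of these data known, and the paper lists the Mybpc2 promoter as strongly bound by Maf. A region was assigned to a gene where it lay in the gene or within 50 kb of any of its transcript starts. By this rule the 3 genes had 6 of 5486 Maf peaks and 24 of 52540 H3K27ac regions, counted after overlapping regions of the replicates were joined.

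ChIP-seq was made from nuclei of gastrocnemius and quadriceps muscles of wild-type C57BL/6N mice aged 2 months. The series holds 2 samples of Maf ChIP, 2 of H3K27ac ChIP and 2 inputs, called biological replicates in the labels, and the inputs were not used here. All animals were untreated and wild type, so nothing here compares muscle with and without Maf, and the lists give binding and mark but no expression. All nuclei of the muscles entered the chromatin, and a region cannot be assigned to a nucleus type from these lists.

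Myosin-binding proteins are thick filament proteins built from immunoglobulin and fibronectin type III domains. The C proteins lie in transverse stripes across each side of the A-band of the sarcomere, where they bind myosin and can also reach actin and tune cross-bridge cycling. Mybpc1 encodes the slow skeletal form, which fast fibers also contain, and Mybpc2 the fast skeletal form. Mybph encodes myosin-binding protein H, a shorter relative found in skeletal muscle. Maf is a large Maf transcription factor of the bZIP class that binds an extended palindrome built around TGCTGA, and H3K27ac is a histone acetylation of active promoters and enhancers.

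The sequences under the Maf peaks are shown because the motifs they held differed between the 3 genes. Each is read from the GRCm38 genome along the direction in which its gene is transcribed, from 5′ to 3′. Mybph lies on the plus strand of its chromosome, and Mybpc2 and Mybpc1 on the minus strand. In the intron 3 peak of Mybph at chr1:134196039-134196319 the capitals mark CAGCTG, the E-box preferred by myogenic bHLH factors, and CATTCC, the Tead sequence, which reads GGAATG on the other strand. In the intron 1 peak of Mybpc2 at chr7:44523100-44523380 they mark GTCAGCA, which is TGCTGAC on the other strand, and AACCTGA, which is the MEF3 sequence TCAGGTT of muscle gene promoters on the other strand. In the promoter peak of Mybpc2 at chr7:44524999-44525279 they mark the 2 E-boxes of the general form CANNTG. This general form is not marked in the other sequences, although the Mybph peak holds 6, the intron 1 peak of Mybpc1 3 and its upstream peak 1. In the intron 1 peak of Mybpc1 at chr10:88603339-88603619 the capitals mark TGCTGAC. In its upstream peak at chr10:88645631-88645911 they mark TGCTGA on either strand.
Mybph intron 3: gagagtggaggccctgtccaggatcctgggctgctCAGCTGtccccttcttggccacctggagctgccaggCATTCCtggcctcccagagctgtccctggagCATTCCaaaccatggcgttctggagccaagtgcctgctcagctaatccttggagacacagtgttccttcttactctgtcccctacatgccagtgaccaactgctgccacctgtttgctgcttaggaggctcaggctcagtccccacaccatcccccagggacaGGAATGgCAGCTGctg
Mybpc2 intron 1: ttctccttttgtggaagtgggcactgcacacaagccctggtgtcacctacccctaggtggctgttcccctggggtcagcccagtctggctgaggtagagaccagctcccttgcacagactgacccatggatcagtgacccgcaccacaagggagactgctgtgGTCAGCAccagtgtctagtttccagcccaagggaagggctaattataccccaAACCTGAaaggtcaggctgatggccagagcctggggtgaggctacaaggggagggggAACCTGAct
Mybpc2 promoter: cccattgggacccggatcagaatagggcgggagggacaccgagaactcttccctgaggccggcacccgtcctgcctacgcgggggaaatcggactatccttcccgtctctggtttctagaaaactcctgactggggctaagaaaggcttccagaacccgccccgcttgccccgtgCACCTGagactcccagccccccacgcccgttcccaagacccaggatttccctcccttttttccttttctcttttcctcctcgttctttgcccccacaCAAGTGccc
Mybpc1 intron 1: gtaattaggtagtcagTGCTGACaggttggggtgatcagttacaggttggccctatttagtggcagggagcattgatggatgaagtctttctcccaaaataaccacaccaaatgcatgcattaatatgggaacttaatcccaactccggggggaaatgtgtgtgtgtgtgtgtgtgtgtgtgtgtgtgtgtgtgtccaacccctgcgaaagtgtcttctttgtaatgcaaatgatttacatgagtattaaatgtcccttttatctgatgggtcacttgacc
Mybpc1 upstream: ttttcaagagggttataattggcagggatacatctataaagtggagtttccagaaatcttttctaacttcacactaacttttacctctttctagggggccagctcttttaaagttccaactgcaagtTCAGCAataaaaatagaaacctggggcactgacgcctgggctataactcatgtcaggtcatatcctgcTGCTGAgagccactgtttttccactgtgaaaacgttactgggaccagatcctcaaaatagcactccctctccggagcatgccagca

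The lists were unequal in size. The Maf list of replicate 1 held 74 peaks of 181 bp and that of replicate 2 held 5467 peaks of 281 bp, and 55 of the 74 overlapped a replicate 2 peak. For H3K27ac, replicate 1 had 44887 regions (median 1476 bp) and replicate 2 had 44987 (median 1499 bp). They give positions only, every score being 1, so read depth is unknown and no value has a counting error. The position of a region in its list is used below as a stand-in for its strength, which the lists do not state. H3K27ac covered a start in both replicates at 6 of 6 fast fiber marker genes, 2 of 5 slow fiber genes and 0 of 4 cardiac genes. It also did so at 4 of 4 endothelial and 4 of 4 fibro-adipogenic genes, and at 54.4% of all protein-coding genes.

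All 3 genes had a Maf peak, and in each gene a Maf peak lay inside an intron near its 5′ end. The rule was met by 32.2% of all protein-coding genes, so a peak in the window alone is common. A Maf peak inside the gene body was present at 3 of 3 members, against 11.9% of all genes, of which the median gene is 17425 bp long. Mybph is 7785 bp, Mybpc2 22958 bp and Mybpc1 86874 bp long. The share was not matched for gene length, and a part of length in it was not tested. Mybpc2 and Mybpc1 had 2 or more Maf peaks, as did 11.2% of all genes. The windows of Mybpc2 and Mybpc1 were 115579 and 181875 bp, longer than the median window of 104245 bp over all genes. With 2 lists per target and no read counts no test was made, and these shares describe the lists.

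**Figure D1:**
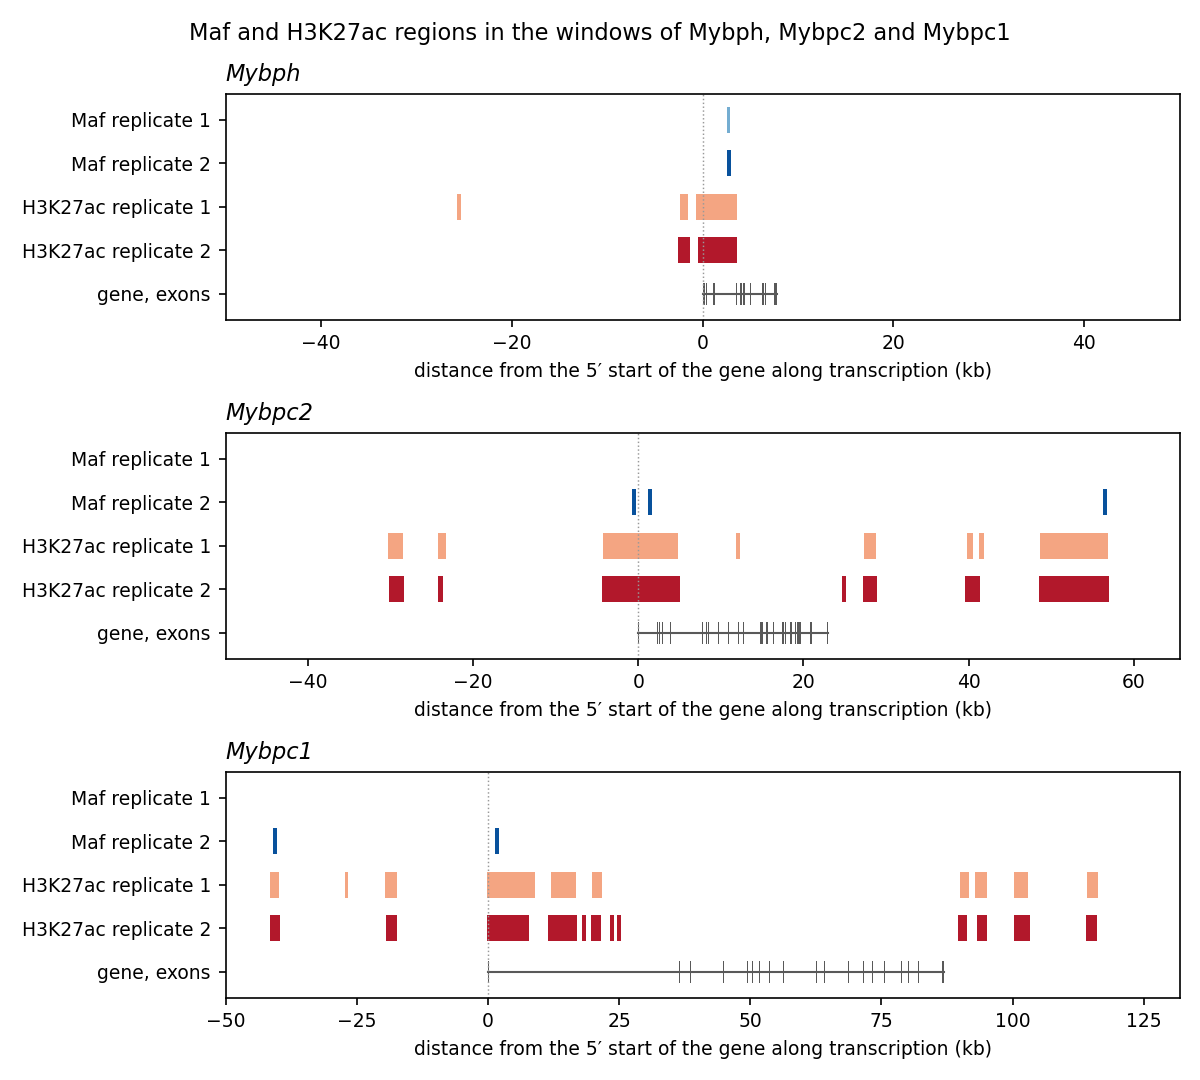
Maf and H3K27ac regions of each replicate along the windows of Mybph, Mybpc2 and Mybpc1, drawn in kb from the 5′ start of the gene in the direction of transcription, with exons as grey boxes; regions are widened to a minimum width to be visible. Mybph has 1 Maf peak in both replicates, Mybpc2 has 3 and Mybpc1 has 2 in replicate 2 only, and each lies within H3K27ac.

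The highest placed peak of the family was that of Mybph. It stood at position 17 of 5467 in replicate 2, at chr1:134196039-134196319, and was the first peak of chromosome 1 in that list. In replicate 1 it stood at position 5 of 74, at chr1:134196079-134196259. Mybph was thereby the only member seen in the short replicate 1 list, which reached 0.634% of all genes. A peak present in both lists was found at 0.602% of genes. The peak lay in intron 3 of Mybph, with its centre 2731 bp downstream of the 5′ start in replicate 2 and 2721 bp in replicate 1. It was the only Maf peak in the Mybph window of 100010 bp.

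Mybpc2 had its Maf peaks around the transcript start and at a neighbouring gene. The intron 1 peak stood at position 108 of replicate 2, with its centre 1416 bp downstream of the start. A promoter peak at position 822 had its centre 483 bp upstream of the start, which made Mybpc2 the only member bound by Maf less than 1 kb from a start, as were 5.57% of all genes. The other peak of the window, at chr7:44467957-44468237 and position 1863, lay beyond the 3′ end of Mybpc2 at the start of Josd2, which encodes a deubiquitinase of the Josephin family. Its centre was 3 bp from the Josd2 start and 56559 bp from the 5′ start of Mybpc2, and it entered the window only through an inner start of a short Mybpc2 transcript, 40981 bp away. Replicate 1 had no Maf peak in the Mybpc2 window.

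Mybpc1, with 6 annotated starts over 86874 bp, had the lowest placed peaks of the 3 genes. The intron 1 peak was at position 4563 of 5467, with its centre 1673 bp downstream of the 5′ start, and it overlapped Gm48752, an unclassified noncoding gene model. The upstream peak was at position 2108, centred 40619 bp before the start and between protein-coding genes. The nearest transcript start to the upstream peak was that of Spic, a macrophage Ets factor gene, at 37252 bp. Replicate 1 had no Maf peak at Mybpc1 either, so only the Mybph peak was seen in both replicates. Just beyond the window, replicate 2 had a Maf peak 53.9 kb upstream of Mybpc1 at position 3506, also nearer to Spic. Mybph had such peaks at 59.9 kb, nearest to the chitinase gene Chit1, and at 96.4 kb at the promoter of Myog, the gene of the myogenic bHLH factor myogenin, at positions 1359 and 1485.

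**Figure D2:**
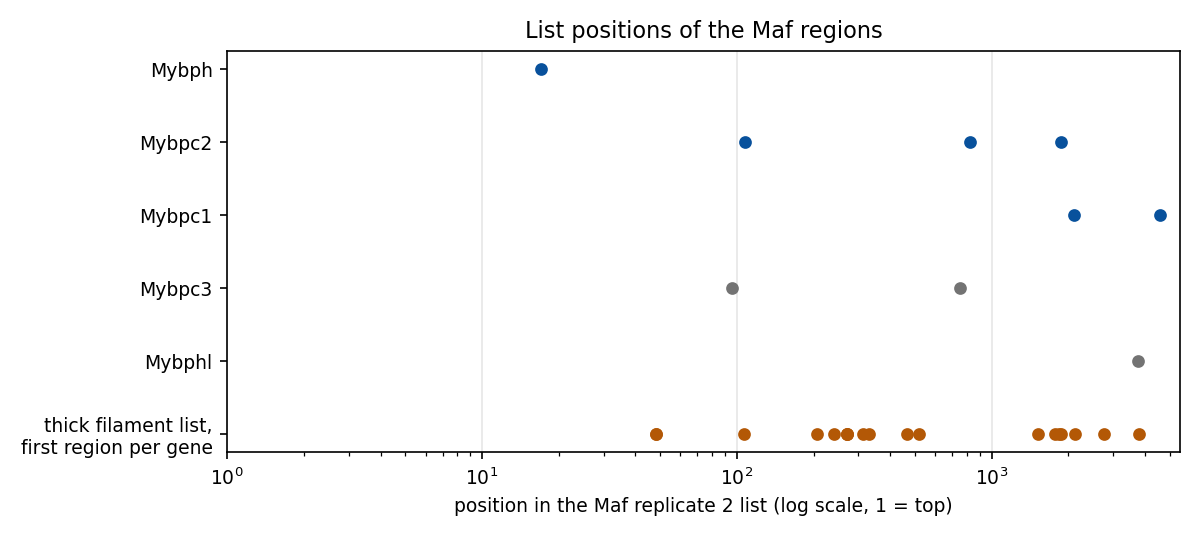
Position in the Maf replicate 2 list (log scale, 1 at the top of the list) of each Maf peak in the windows of Mybph, Mybpc2 and Mybpc1 (blue), of Mybpc3 and Mybphl (grey), and of the first peak of each gene of the thick filament and M-band list that had any (orange). The Mybph peak at 17 stands before all other points, and Mybpc1 at 4563 holds the last.

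H3K27ac lay at all 6 Maf peaks of the 3 genes. Each was covered over its whole length in both H3K27ac replicates, where 69.1% of all Maf peaks shared a base with H3K27ac in either replicate. At the level of genes, a Maf peak with H3K27ac in the window was present at 3 of 3 members and at 26.1% of all genes. The start itself lay under H3K27ac in both replicates at 3 of 3 members, against 54.4% of all genes.

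The H3K27ac regions over the starts were broad. That of Mybpc1 was 9147 and 8051 bp long in replicates 1 and 2, and that of Mybpc2 was 9139 and 9456 bp. Mybph had 4330 and 4077 bp. Among all genes with such a region the median was 2128 and 2208 bp, so the 3 members lay above it in both replicates. Ranked over all genes, with genes lacking a region counted as 0, Mybpc1 stood at percentiles 97.4 and 96.1, Mybpc2 at 97.3 and 97.2, and Mybph at 90.2 and 88.6. In the order of the H3K27ac lists the Mybpc2 region came at positions 319 and 323, that of Mybpc1 at 2114 and 2875, and that of Mybph at 6150 and 7108. Over all regions, longer ones came earlier in these lists (Spearman rho of position with length -0.929 over 44887 regions and -0.936 over 44987), a description of lists whose regions are not replicates. In replicate 1, however, the Mybpc1 start region, slightly the longer, stood behind that of Mybpc2.

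The shape of the region around the start differed between the genes. At Mybpc2 the joined region ran from 4397 bp upstream to 5058 bp downstream, nearly even about the start, and held both the promoter and the intron 1 Maf peak. At Mybpc1 it began only 245 bp upstream and ran 8901 bp into intron 1. At Mybph it ran from 743 bp upstream to 3586 bp downstream and covered 46.1% and 45.9% of the short gene. The gene body share was 17.7% and 19.5% for Mybpc1 and 23.3% and 22.0% for Mybpc2, where the median gene had 3.09% and 3.17%. The Mybph peak lay toward the downstream edge of its region, 855 and 842 bp from it. The intron 1 peak of Mybpc1 lay toward the upstream edge, 1918 and 1788 bp from it.

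**Figure D3:**
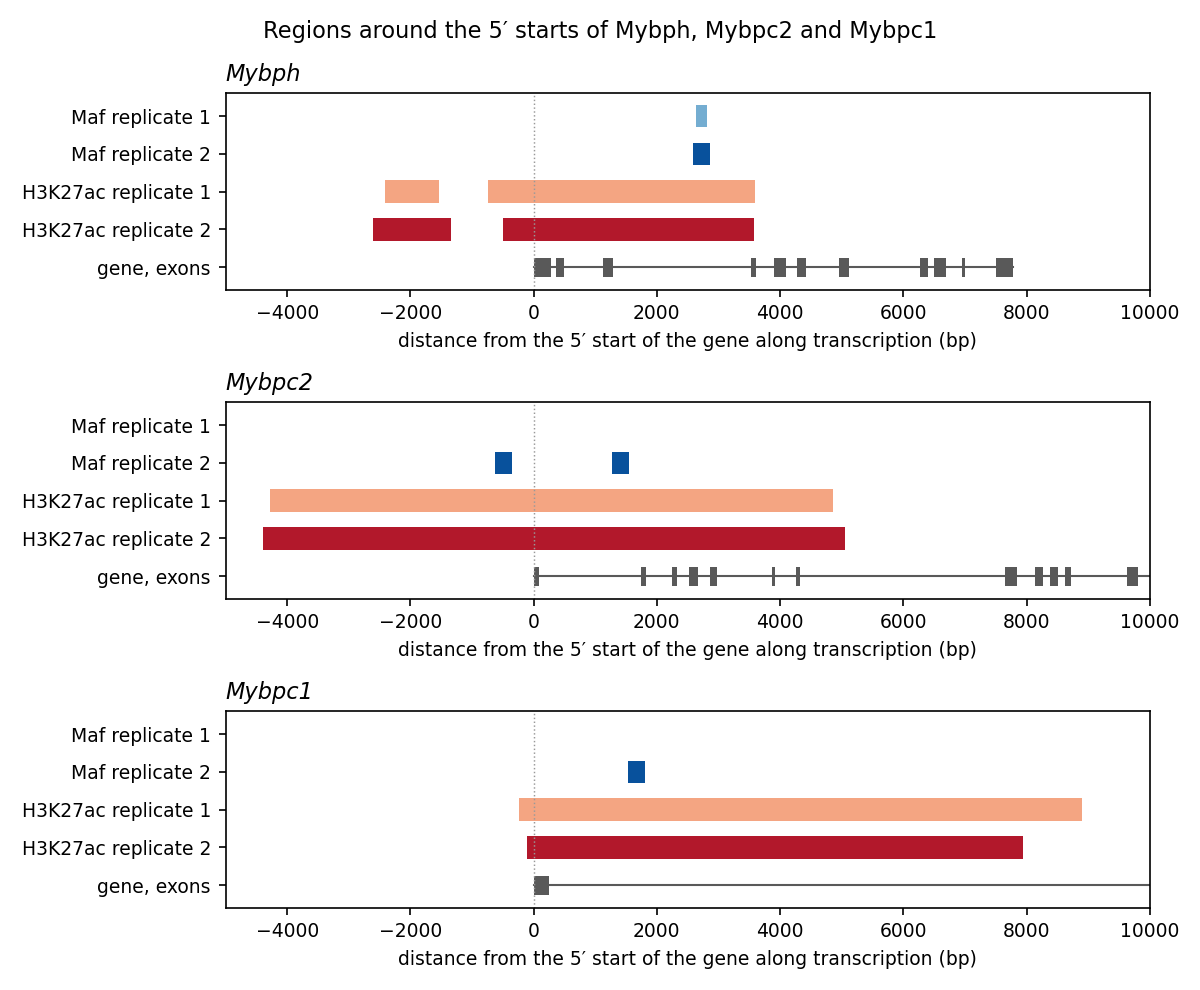
Maf and H3K27ac regions from 5000 bp before to 10000 bp after the 5′ start of each gene, in bp along transcription and to scale, with exons in grey. The H3K27ac region is even about the start at Mybpc2, and lies almost wholly downstream of it at Mybpc1 and mostly so at Mybph.

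Away from the starts, Mybpc1 carried a group of H3K27ac regions over its long introns. Of 13 joined regions in its window, 9 were in both replicates and 9 were nearer to a Mybpc1 start than to that of another gene. These sets differ, since all regions in a single replicate (3 in replicate 2, 1 in replicate 1) were nearest to Mybpc1. The 3 in replicate 2 only were among the 6 regions centred inside the gene. In intron 1 a region of 4727 and 5450 bp lay between 11.5 and 16.9 kb downstream of the start, and in intron 2 another of 1774 and 1892 bp lay between 19.6 and 21.7 kb. No Maf peak lay in either. The remaining body of Mybpc1, from 25.2 kb to its 3′ end, held no H3K27ac region in either list. A region 17.3 to 19.6 kb upstream, between protein-coding genes and without Maf, was also in both replicates.

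In the Mybpc2 window most regions were nearer to neighbouring genes. Mybpc2 had 8 joined regions, 6 in both replicates, but only 2 were nearest to Mybpc2 itself. The others lay at or near Josd2, Emc10, a subunit gene of the membrane protein insertion complex, Fam71e1, Pold1, which encodes DNA polymerase delta, and Nr1h2, which encodes the liver X receptor beta. Mybph had 3 joined regions, 2 in both replicates and nearest to it, while the third, 501 bp in replicate 1 only, was nearest to Chil1, a chitinase-like gene. Near Mybpc1 the choline phosphotransferase gene Chpt1 had 3 of the regions and Spic 1. Over the 3 genes 17 of 24 joined regions were in both replicates, close to the 67.0% of all 52540 joined regions. The median length of these 17 was 2249 bp. The 7 seen in a single replicate were 501 to 629 bp long, and none of them held a Maf peak. The replicates shared 79.6% of the joined bases at Mybpc1, 85.3% at Mybpc2 and 81.0% at Mybph.

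As a share of the whole window, H3K27ac covered 20.2% and 21.3% at Mybpc2, 15.9% and 16.3% at Mybpc1 and 5.70% and 5.35% at Mybph. The median of all genes was 4.61% and 4.65%. Mybph thus stood near the middle of all genes over its window, at percentiles 55.3 and 53.4, well below the rank of its start region. In a window of 10 kb Mybph had 28.0% covered in the joined lists, close to the 29.4% of Mybpc2 and above the 20.1% of Mybpc1. This window also kept the whole gene, so it measured 20010 bp at Mybph, 35579 bp at Mybpc2 and 101875 bp at Mybpc1. The cover of all genes in it was not computed. The difference between the genes in window cover therefore depended on the window.

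**Figure D4:**
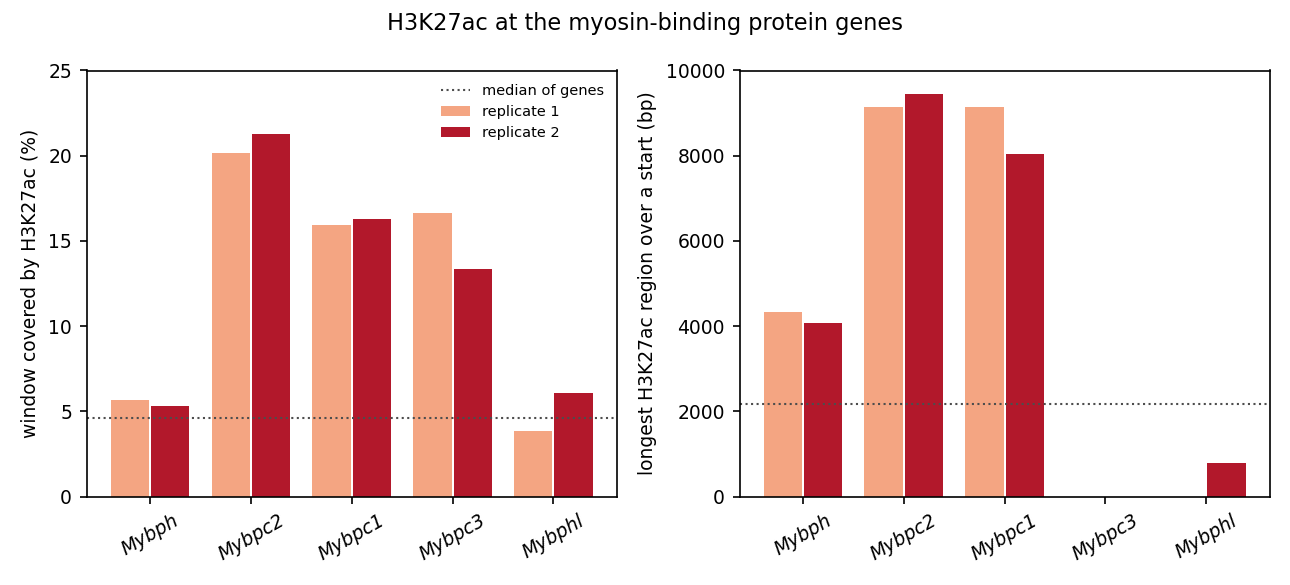
Share of the 50 kb window covered by H3K27ac (left, %) and length of the longest H3K27ac region over a transcript start (right, bp), with a bar for each replicate; the dotted line is the mean of the replicates' medians over all genes (left) or over genes with such a region (right). Mybph, Mybpc2 and Mybpc1 lie above the line in both panels, Mybpc3 has no region over its start, and Mybphl has 789 bp in replicate 2 only.

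The short Maf sequence TGCTGA was about as frequent in the Maf peaks of the 3 genes as in all Maf peaks. It was found, on either strand, in 3 of 6, namely both peaks of Mybpc1 and the intron 1 peak of Mybpc2. Of 5466 replicate 2 peaks on the main chromosomes 50.8% held it, as did 19.5% of 32851 RefSeq promoters of 300 bases. Over about 100 bp around the peak centre, 2 of the 6 held it, against 35.7% of all peaks. The extension TGCTGAC, which contains TGCTGA, was found in 2 of the 6, against 22.8% of peaks and 4.67% of promoters. At Mybpc2 TGCTGAC began 1439 bp downstream of the start, 26 bp from the peak centre. At Mybpc1 it lay 121 bp from the centre of the intron 1 peak, and a run of TG repeats lay nearer the centre. The upstream peak of Mybpc1 had TGCTGA 10.5 and 57.5 bp from its centre.

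The highest placed peak, that of Mybph, held no TGCTGA. Among the first 100 peaks of the replicate 2 list 77 held it, and among the 55 peaks also present in replicate 1 it was in 46, so the Mybph peak belonged to the smaller group in both. These counts were made after the sequence had been seen. Against the 13-letter Maf element, TGCTGA, then C or G, then TCAGCA, its best match TGCctgCTCAGCt had 4 mismatches (lower case), as few as in 71.2% of all Maf peaks. The match was 2 bp from the peak centre. By this measure the upstream peak of Mybpc1 also had 4 mismatches. The intron 1 peaks of Mybpc2 and Mybpc1 had 5 each, as few as in 97.6% of Maf peaks, and their best matches lay apart from the TGCTGAC they hold. The Mybpc2 promoter peak likewise had 5. In the Josd2 peak of the Mybpc2 window the best match was cGCTGACTgAGCA with 2 mismatches, as few as in 12.5% of Maf peaks, although that peak held no TGCTGA.

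The Mybph peak held repeated E-boxes and Tead sequences. It had 6 matches to CANNTG, 2 of them CAGCTG, and 3 matches to CATTCC. Of all replicate 2 peaks, 0.878% held at least 6 CANNTG, 3.71% at least 2 CAGCTG and 0.201% at least 3 CATTCC, which was 11 peaks. Any CANNTG was in 78.0% of peaks and 72.3% of promoters, so its presence alone was common. CAGCTG was in 24.3% of peaks and 16.3% of promoters, and CATTCC in 15.3% and 14.7%. The intron 1 peak of Mybpc2 held 2 MEF3 sequences TCAGGTT, as did 8 of all peaks (0.146%), where 5.10% held any. These multiple counts were likewise chosen after the sequences had been seen, and a match of letters does not show that a factor is bound.

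**Figure D5:**
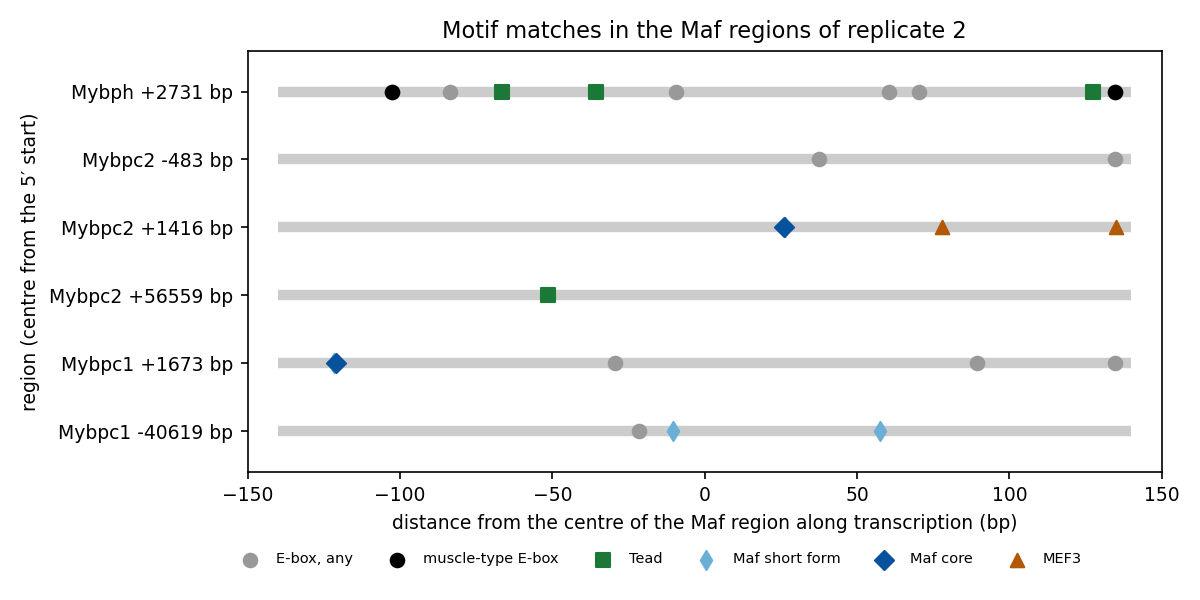
Motif matches in the 6 Maf peaks of replicate 2, plotted in bp from the peak centre along transcription, with peaks named by gene and centre distance from the 5′ start; the Maf core is TGCTGAC, its short form TGCTGA, the muscle-type E-box CAGCTG, Tead CATTCC and MEF3 TCAGGTT. The short form is absent from the Mybph peak, which has E-boxes and Tead matches, and is present in 2 Mybpc1 peaks and 1 Mybpc2 peak.

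The peaks also differed in base composition. The Mybpc1 peaks were 44.1% GC each, below the 49.5% median of all Maf peaks. The peaks of Mybpc2 were 58.4% in intron 1, 60.1% at the promoter and 66.9% at Josd2, and that of Mybph was 59.8%.

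The promoters of Mybph and Mybpc1 are shown because each holds a sequence that was also searched for in the peaks. These are the 250 bases before the RefSeq start, in GRCm38, at chr1:134193198-134193447 on the plus strand for Mybph and chr10:88605153-88605402 on the minus strand for Mybpc1. Capitals mark CAGCTG and GGAATG at Mybph, and CAGCTG and the best match to the 13-letter Maf element at Mybpc1.
Mybph promoter: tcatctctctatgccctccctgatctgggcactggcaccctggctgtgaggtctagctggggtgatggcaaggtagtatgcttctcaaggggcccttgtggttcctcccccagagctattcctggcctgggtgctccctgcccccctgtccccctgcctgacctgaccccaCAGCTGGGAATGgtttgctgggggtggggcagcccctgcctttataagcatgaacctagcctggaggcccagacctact
Mybpc1 promoter: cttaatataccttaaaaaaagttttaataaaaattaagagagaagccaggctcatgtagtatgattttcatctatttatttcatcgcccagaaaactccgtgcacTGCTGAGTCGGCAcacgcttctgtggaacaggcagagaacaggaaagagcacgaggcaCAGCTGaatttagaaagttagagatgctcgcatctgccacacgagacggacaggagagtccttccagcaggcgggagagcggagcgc

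At the Mybph promoter CAGCTG began 79 bases before the start and was followed by GGAATG with 0 bases between them. In the intron 3 peak GGAATG and CAGCTG stood in the opposite order with 1 base between them. A pair this close was in 0.128% of Maf peaks (7) and 0.0396% of promoters (13), a count made after the pair had been noticed. TGCTGAC, held by 4.67% of promoters, began 1 base before the Mybph start and spanned it. The promoter itself had no Maf peak, and H3K27ac covered all of it in both replicates. At the Mybpc1 promoter TGCTGAGTCgGCA, 145 bases before the start, differed from the Maf element at 1 position (lower case). As close a match was in 0.110% of promoters, a cut set by the match found at Mybpc1. The best matches at the Mybpc2 and Mybph promoters had 4 mismatches each. No Maf peak lay at the Mybpc1 match, the nearest being the intron 1 peak with its centre 1812 bp away. H3K27ac lay over this match in replicate 1 only. The Mybpc2 promoter had no TGCTGA and no CAGCTG in the same window, and had GGAATG 62 bases before the start.

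The other genes of the family differed from the 3 at their starts. Mybpc3, the cardiac form, had 0 H3K27ac regions over its start in either replicate. Its window held 2 Maf peaks, at position 96 in Spi1, the gene of the PU.1 factor of myeloid cells, and at position 751 at the start of the zinc transporter gene Slc39a13, and no Maf peak or H3K27ac region of the window was nearest to Mybpc3. Mybphl, a relative of Mybph known from the atria of the heart, had a Maf peak at position 3744 centred 971 bp before its start with no H3K27ac over it in either replicate. Its start lay under 789 bp of H3K27ac in replicate 2 only.

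The same rule was applied to a list of 24 sarcomere and associated genes, most of them of the thick filament and M-band. Of these 19 had a Maf peak in the window, against 32.2% of all genes, and 17 had 2 or more, against 11.2%. In the gene body 11 had a Maf peak (11.9% of all genes) and within 1 kb of a start 9 (5.57%). A peak present in both Maf replicates was found at 2 (0.602% of all genes). H3K27ac covered the start in both replicates at 19, against 54.4% of all genes. The median share of the window covered by H3K27ac was 23.8% and 23.1%, near the values of Mybpc2 and above those of Mybpc1 and Mybph. The first listed Maf peaks were that shared by the windows of the fast and embryonic myosin genes Myh2 and Myh3 at position 48, that of the muscle creatine kinase gene Ckm at 107, of Lmod2, a leiomodin that extends thin filaments, at 207, of the titin gene Ttn at 240, and that shared by Myh1, Myh4 and Myh8 at 271. The Mybph peak thus stood before the first peak of each of the 19 genes with a Maf peak. No Maf peak was found for Myh7, the slow myosin gene, Myl3, Obsl1, Smpx and Trim55. Several of these genes share windows and peaks, and they are not independent.

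Genes most like each member in covered bases over the 4 lists were found by the smallest summed difference of percentiles. For Mybph these were Cct2, Trim27 and Blmh, with sums of 2.22, 4.06 and 8.37 percentile points. For Mybpc2 they were Sspo, Vps52 and Cers5, at 0.103 to 0.467 points, and for Mybpc1 Nrm, Lims1 and Fermt3, at 0.251 to 0.315 points. None of these 9 is a sarcomere gene, and the measure uses only how many bases were covered.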

How the data were processed

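Reads were trimmed and aligned by the authors to mm10 (GRCm38) with Bowtie2 (2.3.2 in the submitters' processing notes, which also name Picard 2.10.3, bcl2fastq 2.17, FastQC and HOMER). The authors called peaks separately for every ChIP sample, and the paper gives a false discovery rate for its Maf peaks, without saying whether it holds for each list. Other settings of the caller and its use of the inputs are not given in the sources used here. The deposited lists have 6 columns with a score of 1 for every region, so the score was not used, and only positions and the order of lines were. From the lists on, replicates were joined where they overlapped, 1 shared base counted as overlap, and positions were compared with GENCODE vM21 and RefSeq sequences of GRCm38. All values are descriptions without a test, beside the same value over all genes or peaks. The members, gene lists and motifs were chosen with earlier results of these data known. Motifs were searched on both strands. The genes named are the 3 members, Mybpc3 and Mybphl, the protein-coding genes whose starts were nearer to a region of a member's window, the 6 thick filament genes with the highest Maf position and genes sharing their peak, and the 3 genes most like each member. Genes of peaks just outside the windows, and thick filament genes without a peak, were named after their values were seen. The result for a peak outside the Mybpc2 window is not reported here. Marker lists of satellite cells and macrophages had H3K27ac over the start in both replicates at 2 of 3 and 2 of 4 genes, against 54.4% of all genes. Overlap and motif counting were tested on simulated data. Scripts ran in Python 3.11.15 (pandas 2.3.3, numpy 2.4.6, matplotlib 3.10.9). Alternatives were other windows, the 5′ end only, the nearest gene only, a stricter Maf list, H3K27ac in both replicates, more overlap, the replicate block and leaving out each replicate.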

Additional observations from a re-analysis of the deposited data

How the results depend on the processing

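The count of 6 Maf peaks, all with H3K27ac, ranged from 1 to 6 when each Maf replicate was left out in turn, since replicate 2 alone holds those of Mybpc2 and Mybpc1. The 3 peaks with TGCTGA ranged from 0 to 3. A window of 100 kb gave 10 Maf peaks, all 10 with H3K27ac. A window of 10 kb gave 4, as did keeping only peaks nearest to a member, and either setting left Mybpc1 with 1. The 24 H3K27ac regions became 12 in a window of 10 kb and 13 when only regions nearest to a member were kept, and stayed at 21 without either H3K27ac replicate. Asking for H3K27ac over 50% of the Maf peak, or from the same-numbered replicate only (the replicate block), left 6 of 6. These settings could not change the count, since each peak was wholly covered in both H3K27ac replicates. Numbering peaks by their names within a chromosome, chosen after seeing the data, kept the order of the 6 peaks. It ran from 0.231% of the highest number for Mybph to 93.2% for the intron 1 peak of Mybpc1. Some values moved by more than 1.5 times from the percent of the list. The upstream Mybpc1 peak went from 38.6% to 22.1%, the Josd2 peak from 34.1% to 16.8% and the Mybpc2 promoter peak from 15.0% to 8.25%. Of 28 settings of the 4 counts, 21 stayed within 1.5 times of the reported value. Among these 21, settings that changed only the H3K27ac asked of the Maf peaks could not move the count. Nor could leaving out Maf replicate 1, whose only peak here overlaps a replicate 2 peak. No paired analysis by a test was possible because the result comes from no test. With 74 peaks in replicate 1 against 5467, absence from replicate 1 says little, and read depth was not available from the lists used here.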
